A study of Mus musculus with 6 samples.

Results

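The 7 genes described here, Lilrb4a, Lilr4b, Pilra, Clec12b, Cd200r3, Siglecf and Cd300a, encode immunoglobulin-like and lectin-like receptors of mast cells and other myeloid cells. They were picked by name from the 17909 genes of the deposited expression table, with their values in view, because several stood high in embryonic limb cells at E14.5 or in embryonic skin cells. Their levels and differences across the 6 libraries are therefore a description of these libraries and carry no test. The study traced connective tissue mast cells back to erythro-myeloid progenitors (EMPs), a wave of embryonic blood progenitors, and sequenced bulk RNA of sorted cells.

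All cells came from C57BL/6xFVB mouse embryos and were sorted with Csf1r-iCre fate mapping, in which a Cre recombinase driven by the Csf1r promoter marks cells that have used this promoter, together with their progeny. The order of the mast cell lineage began with fetal liver EMPs of stage E11.5, where E counts embryonic days. It went on with mast cell progenitors (MCPs) taken from E11.5 fetal liver, from E11.5 limbs and then from E14.5 limbs. It ended with E16.5 skin, whose cells the labels call MCPs in the title and mast cells in the description. A library labelled as E11.5 fetal liver macrophages, called the MAC library here, stood outside that order. Each group was a single library, and the sources used here do not state how many embryos went into it, so no value has a replicate error and no difference can be set against a spread. Stage and tissue changed together between the limb and skin libraries.

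Inhibitory receptors of this kind carry immunoreceptor tyrosine-based inhibitory motifs (ITIMs) in their cytoplasmic tails. Once phosphorylated by Src-family kinases such as Lyn, an ITIM recruits the phosphatases SHP-1, encoded by Ptpn6, or SHIP-1, encoded by Inpp5d, and these dampen signals from activating receptors such as the IgE receptor of mast cells. Many inhibitory receptors have a close relative without the motif, which couples through adaptors such as DAP12, encoded by Tyrobp, and activates the cell. In mast cells the gp49B receptor and Cd300a are known for restraining degranulation.

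The name inhibitory receptor holds for only part of the set. Lilrb4a encodes gp49B, which has ITIMs, while Lilr4b encodes gp49A, its neighbour and near copy without them. Pilra is the inhibitory member of the paired immunoglobulin-like type 2 receptors, Clec12b a C-type lectin with an ITIM, Siglecf a sialic acid-binding lectin best known from eosinophils, and Cd300a a phospholipid-binding inhibitory receptor. Cd200r3 is an activating relative of the CD200 receptor that pairs with DAP12. Nor were all of them highest in a mast cell lineage library: Siglecf and Cd300a peaked in the MAC library, though both were also listed in every MCP library and in skin. The set is therefore treated below as 7 receptors and not as a mast cell signature.

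The libraries were alike in depth but not in shape. Mapped fragments, inferred from the spacing of low FPKM values (fragments per kilobase of transcript, scaled to the mapped fragments of the library), lay between 8550000 and 11950000, at which 1 fragment on a transcript of 1.5 kb gave 0.0558 to 0.078 FPKM. The skin library listed 5675 genes at 1 FPKM or more, and the other libraries 8270 to 8754. Mast cell markers (12 genes) summed to 541 FPKM in EMPs, 601 in liver MCPs, 1380 in E11.5 limb MCPs, 4320 in E14.5 limb MCPs and 16900 in skin, and to 385 in the MAC library. Single genes weighed heavily in these sums. Cpa3 alone gave 13493.94 FPKM in skin, and Srgn gave 411.07 in EMPs and 317.88 in the MAC library. In skin 9 of the 12 reached their highest value, yet Gata2, a mast cell transcription factor, was listed at 0 there. Macrophage markers (9 of 10 in the table) were highest in the MAC library for 8 of 9 genes, but its eosinophil markers summed to 9880 FPKM and its neutrophil markers to 7900, against 92.3 for the macrophage markers.

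A pair of sequence sets helps in reading the values. The first is from the coding regions of Lilr4b and Lilrb4a, which were 96.0% identical over 907 aligned coding bases (GENCODE M21 transcripts), because such likeness decides how far short reads can be told apart. Capitals mark the bases at which the pair differs, first in coding bases 1 to 90, with 2 differences, and then in coding bases 214 to 303, with 11 differences, the most divergent stretch of that length.
Lilr4b 1 to 90: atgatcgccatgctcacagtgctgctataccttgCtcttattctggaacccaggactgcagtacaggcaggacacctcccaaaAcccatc
Lilrb4a 1 to 90: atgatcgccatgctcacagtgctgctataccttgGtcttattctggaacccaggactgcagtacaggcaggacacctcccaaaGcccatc
Lilr4b 214 to 303: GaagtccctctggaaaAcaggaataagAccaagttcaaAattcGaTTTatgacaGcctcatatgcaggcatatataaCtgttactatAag
Lilrb4a 214 to 303: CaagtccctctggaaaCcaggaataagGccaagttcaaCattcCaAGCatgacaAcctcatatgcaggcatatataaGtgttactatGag

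Of the 50-base windows along each coding sequence, 19.8% of those of Lilr4b and 20.9% of those of Lilrb4a were identical in the other gene. Single reads that lie wholly within these windows cannot be placed by sequence alone, so the single values of the pair are uncertain. The 50 bases were chosen here without use of the libraries' read length, and longer or paired reads could reach a difference. Pilra shared 12.0% of its windows with Pilrb1 and Pilrb2, and Siglecf 0.362% with Siglecg. Clec12b and Cd200r3 shared none, and Cd300a shared 10.1% with Cd300c2, which is not among the 17909 genes. The annotated readthrough gene Gm49339, also not among these genes, contains every window of Lilrb4a. Whether the authors' annotation held Gm49339 is not given in the sources used here, and if it did, reads of Lilrb4a were shared with it, so every Lilrb4a level and Lilr4b to Lilrb4a ratio carries this doubt.

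The second set is promoter sequence, shown because members that were high together in the limb or skin libraries can be compared base by base. RefSeq promoters (GRCm38.p6) were matched for 6 of the 7 genes, all but Lilrb4a. Capitals mark the letters GATAA or TTATC, the core bound by GATA factors such as the mast cell regulator Gata2. Both strands of the 250 bases before each RefSeq start were searched. The windows are chr10:51480362-51480611 on the plus strand for Lilr4b, chr5:137836279-137836528 on the minus strand for Pilra, chr16:44943428-44943677 on the plus strand for Cd200r3 and chr6:129385504-129385753 on the minus strand for Clec12b.
Lilr4b: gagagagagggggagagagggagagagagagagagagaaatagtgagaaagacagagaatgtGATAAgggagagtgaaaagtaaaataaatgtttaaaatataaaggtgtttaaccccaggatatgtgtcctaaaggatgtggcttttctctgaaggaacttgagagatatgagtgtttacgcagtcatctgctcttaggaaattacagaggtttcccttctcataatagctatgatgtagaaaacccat
Pilra: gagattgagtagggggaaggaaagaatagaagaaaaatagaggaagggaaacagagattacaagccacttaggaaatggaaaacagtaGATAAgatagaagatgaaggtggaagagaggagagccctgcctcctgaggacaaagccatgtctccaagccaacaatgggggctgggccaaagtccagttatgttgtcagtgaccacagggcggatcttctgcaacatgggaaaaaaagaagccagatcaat
Cd200r3: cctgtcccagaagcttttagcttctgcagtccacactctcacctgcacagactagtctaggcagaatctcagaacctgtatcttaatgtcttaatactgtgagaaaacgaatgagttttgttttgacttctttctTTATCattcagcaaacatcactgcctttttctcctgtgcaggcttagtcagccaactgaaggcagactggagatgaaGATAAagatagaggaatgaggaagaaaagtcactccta
Clec12b: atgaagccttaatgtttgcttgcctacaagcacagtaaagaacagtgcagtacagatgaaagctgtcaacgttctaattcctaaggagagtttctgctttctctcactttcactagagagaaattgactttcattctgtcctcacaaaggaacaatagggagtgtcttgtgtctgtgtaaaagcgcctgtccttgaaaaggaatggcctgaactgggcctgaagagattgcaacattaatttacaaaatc

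The GATA letters began 188 bases before the start of Lilr4b, 162 before that of Pilra, and 115 and 38 before that of Cd200r3. They were not found in the windows of Clec12b, Siglecf and Cd300a. The RefSeq start of Clec12b lies inside the gene as GENCODE places it (chr6:129375515-129385874, minus strand). Its window is thus within that gene, and bases before the GENCODE start were not searched. Thus 3 of 6 genes held them, and 22.6% of 32851 promoter windows of the same length did. An E-box form bound by MITF, spelled CACGTG, or with the variant core CATGTG, or as its reverse complement CACATG, occurred only before Siglecf, at 206 and 34 bases, and in 17.6% of all windows. GAGGAA or TTCCTC, a core of PU.1 sites, lay before Pilra at 211 bases, Cd200r3 at 28 and 21, Siglecf at 65 and Cd300a at 39, and in 23.3% of all windows. These motifs were picked after the expression values had been seen, and a match is a description of the letters only.

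The gp49 pair, Lilr4b and Lilrb4a, reached its highest level in skin. On GRCm38 the genes lie side by side on the plus strand of chromosome 10, Lilr4b at chr10:51480632-51486703 and Lilrb4a at chr10:51490956-51496611, with 4253 bases between them. Lilr4b measured 0.08 FPKM in EMPs, 1.4 in liver MCPs, 0.54 in E11.5 limb MCPs, 5.62 in E14.5 limb MCPs, 97.9 in skin and 1.08 in the MAC library. It was thus at 1.4 FPKM or below in the E11.5 libraries, intermediate in the older limb and at the 99.5th percentile of all genes in skin. Lilrb4a measured 0.66 FPKM in EMPs, 0.98 in liver MCPs, 0.28 in E11.5 limb MCPs, 0.36 in E14.5 limb MCPs, 26.61 in skin and 5.07 in the MAC library. Unlike its neighbour it was still low in the limb at E14.5, and the MAC library was its second highest. In bulk RNA, fewer cells of a type and less RNA per cell cannot be told apart, which holds for every level given here.

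The balance within the pair differed between libraries. The Lilr4b level was 15.6 times that of Lilrb4a in E14.5 limb MCPs and 3.68 times in skin, against 0.121 times in EMPs and 0.213 times in the MAC library. It was 1.43 times in liver MCPs and 1.93 times in E11.5 limb MCPs. So the form without inhibitory motifs had the higher FPKM in the 4 MCP and skin libraries, and the inhibitory form in the other 2. FPKM is per length of transcript, and the shared windows limit these ratios. Several also rest on few fragments. Lilr4b had 0.08 FPKM in EMPs, where 1 fragment on 1.5 kb gives 0.0558. Lilrb4a had 0.28 FPKM in E11.5 and 0.36 in E14.5 limb MCPs, where 3 such fragments give 0.234 and 0.179. With 1 library per group, ratios as near 1 as 1.43 and 1.93 have no spread to be set against.

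Pilra, like Lilrb4a, was highest in skin and second in the MAC library. It lies at chr5:137821952-137836281 on the minus strand. Pilra had 1.0 FPKM in EMPs, 1.08 in liver MCPs, 0.4 in E11.5 limb MCPs, 1.06 in E14.5 limb MCPs, 44.42 in skin and 5.74 in the MAC library. Skin was far above the rest, with the MAC library next. The Pearson r of log2(FPKM + 1) between Pilra and Lilrb4a was 0.99 over the 6 libraries and 0.97 over the 5 without skin, a description over points that share their libraries and depth. Outside skin and the MAC library both genes were at 1.08 FPKM or below, so the 0.97 rests largely on the MAC library. For Lilrb4a and Lilr4b, r was 0.80 over the 6 libraries and -0.11 over the 5 without skin. The activating partners were lower in skin, with Pilrb1 at 4.85 FPKM and Pilrb2 at 4.92, and both were listed at 0 in E11.5 limb MCPs. In the MAC library they stood at 3.25 and 1.66, closer to the Pilra level of that library.

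Clec12b was the receptor of the older limb as much as of the skin. It lies at chr6:129375515-129385874 on the minus strand. Its level was 0.05 FPKM in EMPs, 0.05 in liver MCPs, 1.68 in E11.5 limb MCPs, 70.23 in E14.5 limb MCPs, 69.17 in skin and 0.06 in the MAC library. The 3 liver libraries held about what a single fragment gives, and the E14.5 limb and skin values were almost equal as deposited, though not with other scalings. The neighbouring gene Clec12a, an ITIM lectin of granulocytes and monocytes, lies 10212 bases away and shares 60.4% of aligned coding bases. Clec12a ran the other way, with 34.74 FPKM in EMPs, 2.6 in liver MCPs, 3.43 in E11.5 limb MCPs, 0.08 in E14.5 limb MCPs, 0.15 in skin and 69.99 in the MAC library. No library held both neighbours above 5 FPKM.

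**Figure D1:**
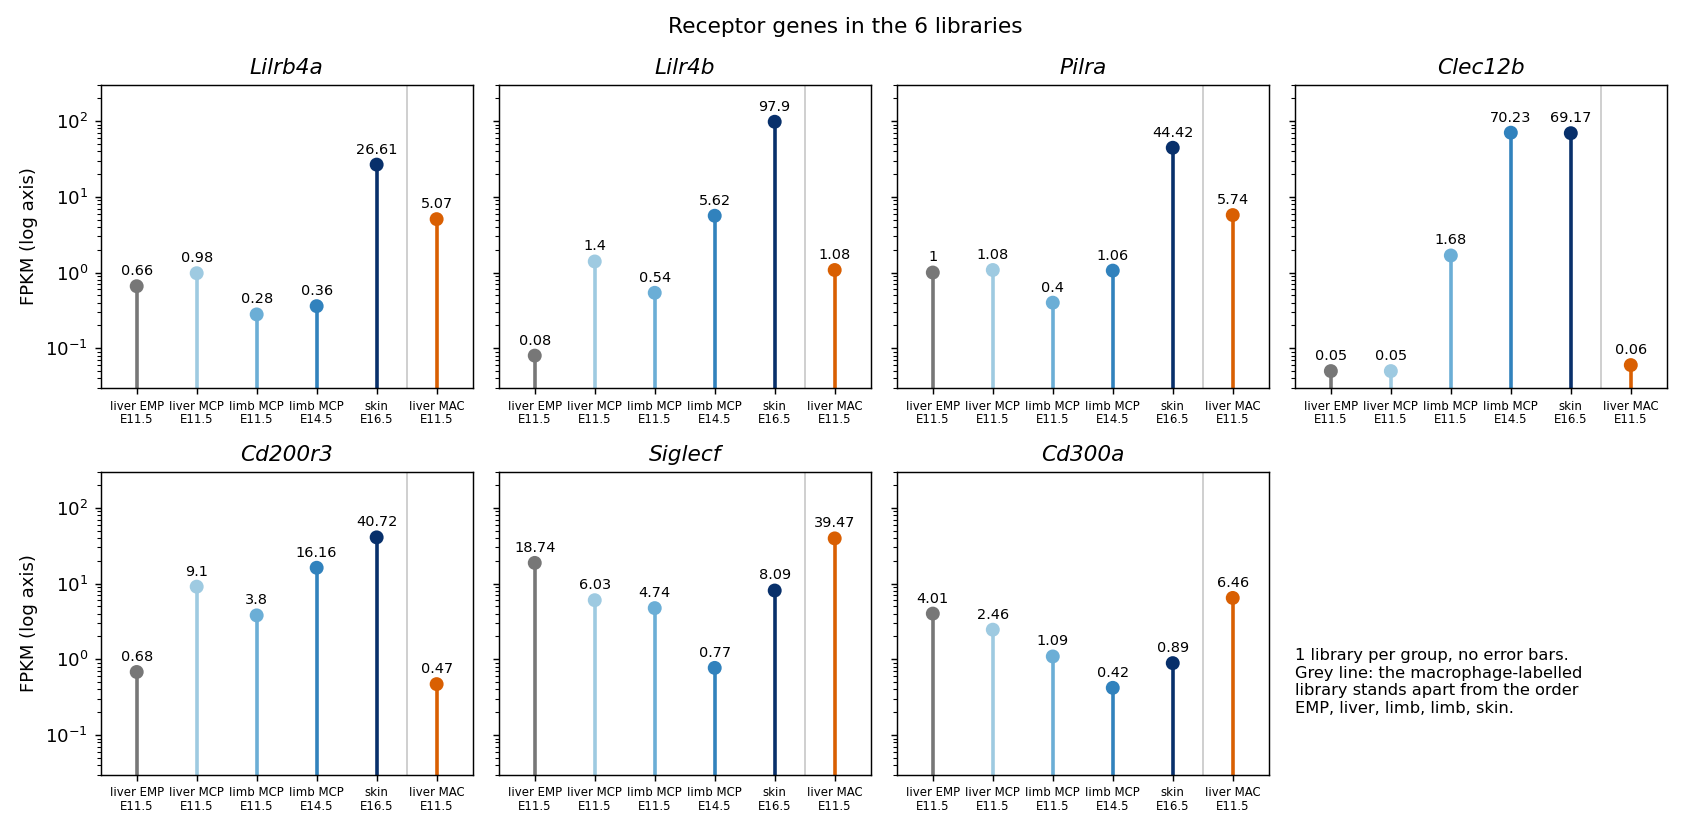
FPKM (log axis) of each of the 7 receptor genes in the 6 libraries, 1 point per library and no error bars, since each group is 1 library. Each point tops a vertical stem, and a grey line sets the MAC library apart from the mast cell lineage. Lilr4b, Lilrb4a, Pilra and Cd200r3 peak in skin at 97.9, 26.61, 44.42 and 40.72 FPKM, Clec12b is level between E14.5 limb MCPs and skin as deposited (difference -0.02, but 1.12 with median-of-ratios scaling), and Siglecf and Cd300a peak in the MAC library.

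Cd200r3 was low in EMPs and the MAC library and present in every MCP library and in skin. It lies at chr16:44943678-44981380 on the plus strand. Its FPKM was 0.68 in EMPs, 9.1 in liver MCPs, 3.8 in E11.5 limb MCPs, 16.16 in E14.5 limb MCPs, 40.72 in skin and 0.47 in the MAC library. All MCP and skin libraries were above both other libraries, and Cd200r3 was the highest member in liver MCPs, with 43.1% of the summed FPKM of the set. Cd200r3 is also a basophil marker, and that list (5 genes, Cd200r3 among them) summed to 2.01 FPKM in EMPs, 10.4 in liver MCPs, 8.53 in E11.5 limb MCPs, 81.5 in E14.5 limb MCPs, 57.2 in skin and 1.28 in the MAC library. Cd200r3 itself gave 9.1 FPKM of the liver MCP sum, 3.8 of the E11.5 limb sum, 16.16 of the E14.5 limb sum and 40.72 of the skin sum. These sums are therefore not independent of it. Within the list Mcpt8, the basophil protease, reached at most 4.79 FPKM, Itga2 was at 0 in 5 of 6 libraries, and Prss34 made up 60.43 FPKM of the E14.5 limb sum. The part of basophil transcripts in the Cd200r3 values was not tested.

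Other CD200 receptor genes were present beside it. Cd200r1, the ITIM-less but inhibitory receptor for CD200, measured 3.65 FPKM in EMPs, 4.3 in liver MCPs, 1.69 in E11.5 limb MCPs, 10.37 in E14.5 limb MCPs, 19.68 in skin and 5.01 in the MAC library. Like Cd200r3 it was highest in skin and second in the older limb, but it was not low in EMPs. The activating relative Cd200r4 was at 6.14 FPKM in skin and listed at 0 in EMPs, and Cd200r2 reached 3.27 in skin. Cd200, the ligand, was at 0.11 FPKM or less in every library.

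Siglecf was lowest in E14.5 limb MCPs and highest in the MAC library. The gene lies at chr7:43351341-43359531 on the plus strand. Siglecf measured 18.74 FPKM in EMPs, 6.03 in liver MCPs, 4.74 in E11.5 limb MCPs, 0.77 in E14.5 limb MCPs, 8.09 in skin and 39.47 in the MAC library. It was lower at each step from EMPs to the limb at E14.5 and higher again in skin. Eosinophil markers (7 genes) were, like Siglecf, highest in the MAC library, next in EMPs and lowest in E14.5 limb MCPs. They summed to 244 FPKM in EMPs, 83.3 in liver MCPs, 92.4 in E11.5 limb MCPs, 1.83 in E14.5 limb MCPs, 8.5 in skin and 9880 in the MAC library. In skin their sum was below those of liver and E11.5 limb MCPs, while Siglecf was above its levels in those libraries. In E14.5 limb MCPs, Prg2, Ear1, Ear2 and Ear6 were at 0, and in skin Ear2 and Ccr3 were at 0 while Il5ra made up 6.64 FPKM of the sum. Their part in the Siglecf values was not tested.

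Cd300a was low in the older mast cell lineage libraries and highest in the MAC library. It lies at chr11:114890041-114904654 on the plus strand. Its values were 4.01 FPKM in EMPs, 2.46 in liver MCPs, 1.09 in E11.5 limb MCPs, 0.42 in E14.5 limb MCPs, 0.89 in skin and 6.46 in the MAC library. It was thus below 1 FPKM in the E14.5 limb and in skin, although it is an established mast cell receptor. Its pattern was near that of Siglecf, with an r of 0.91 over 6 libraries and 0.98 over the 5 without skin. Neutrophil markers (9 genes) summed to 9900 FPKM in EMPs, 1030 in liver MCPs, 479 in E11.5 limb MCPs, 1.74 in E14.5 limb MCPs, 1.25 in skin and 7900 in the MAC library. Their part in the Cd300a values was not tested.

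Siglece, Cd33 and Cd300lb, relatives of Siglecf and Cd300a, were highest in the MAC library, while Siglecg was highest in EMPs (3.11 FPKM, against 2.75 in the MAC library). Siglece, an ITIM lectin, read 27.5 FPKM there, 6.8 in EMPs and 1.78 in skin. Cd33 read 32.07 in the MAC library, 10.9 in EMPs and 13.05 in skin, against 0.73 to 2.31 in the MCP libraries. Cd300lb, an activating relative, was at 5.27 in the MAC library and at 0 in both the E14.5 limb and skin. These relatives were picked after the values of the 7 genes had been seen.

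**Figure D2:**
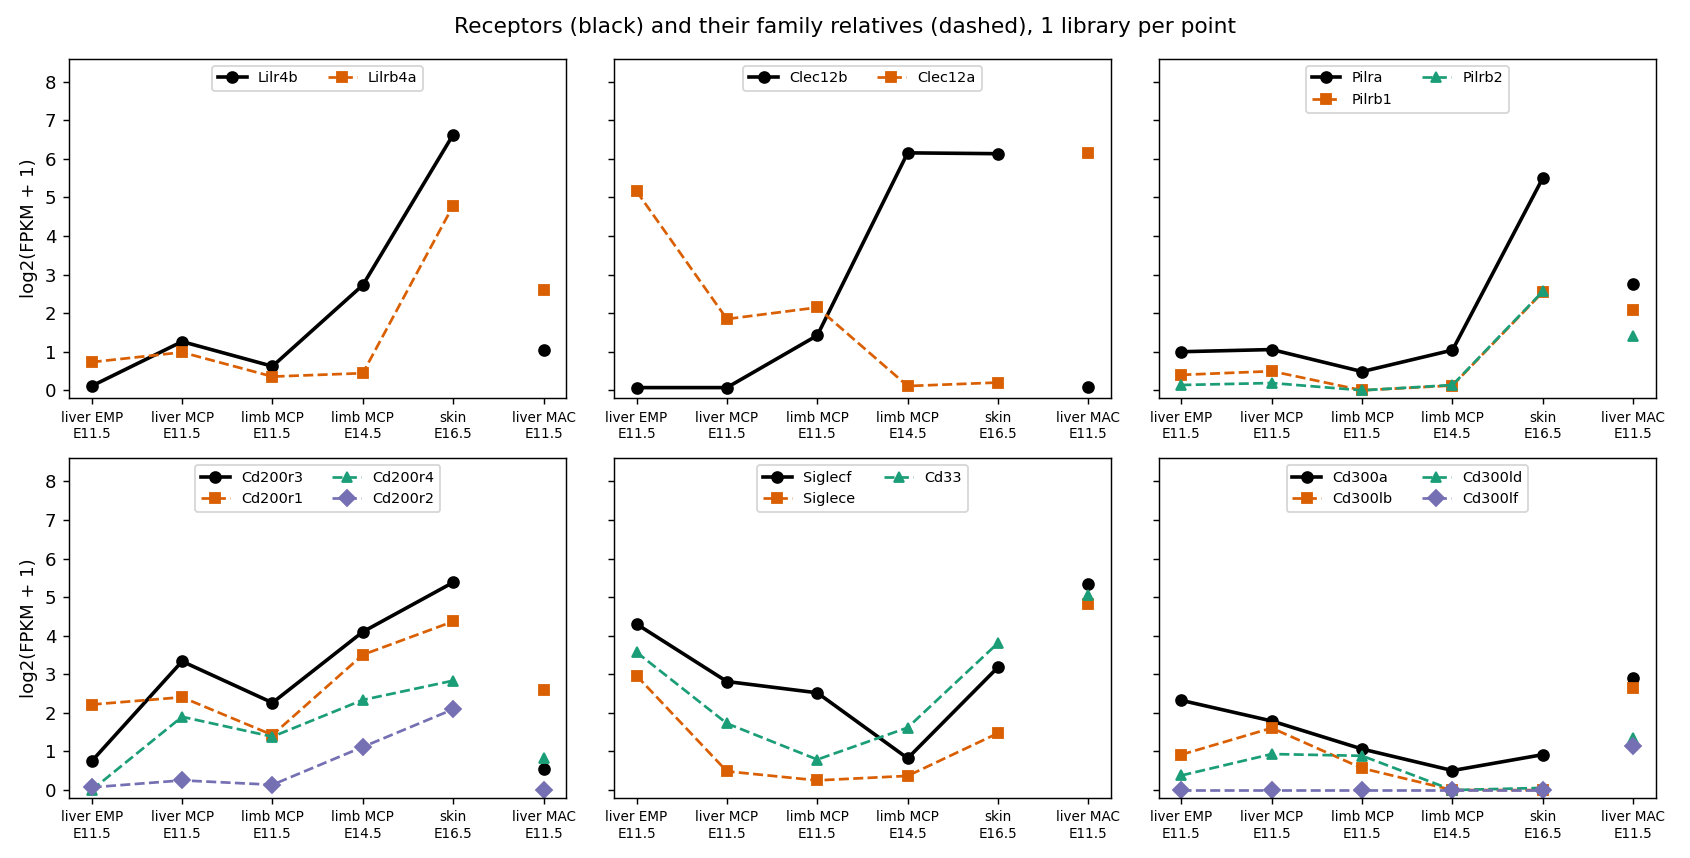
Level as log2(FPKM + 1) of receptors (black) and family relatives (dashed) in each library, 1 library per point. Clec12b and Clec12a run in opposite directions, Clec12b with 70.23 FPKM and Clec12a with 0.08 FPKM in E14.5 limb MCPs. Lilr4b lies above Lilrb4a in the MCP and skin libraries, by only 1.43 times in liver MCPs. Lilrb4a has just 0.28 and 0.36 FPKM in the E11.5 and E14.5 limb libraries.

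The leading member differed among the libraries. Siglecf made up 74.3% of the summed FPKM of the 7 genes in EMPs (sum 25.2), 37.8% in E11.5 limb MCPs (sum 12.5) and 67.6% in the MAC library (sum 58.4). Clec12b made up 74.2% in E14.5 limb MCPs, where the sum was 94.6. In skin the sum was 288 FPKM, Lilr4b held 34.0% of it, and 5 of 7 members were at 10 FPKM or more, against 2 in E14.5 limb MCPs, 1 in EMPs, 1 in the MAC library and 0 in the other libraries. No member was listed at 0 in any library.

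The differences below are of log2(FPKM + 1), and a gene counted as called at a difference of at least 2 (4-fold) where 1 or both libraries reached 1 FPKM. Folds are plain ratios of FPKM. Since the 7 genes were chosen with these contrasts known, the share of all genes called is printed beside the members' counts and nothing is read from the pair. Medians of the members are given on the same terms. Members under 1 FPKM in both libraries of a comparison were not counted.

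In liver MCPs against liver EMPs, 1 of 5 counted members was called higher and 0 lower, where 1.4% of all genes were called higher and 1.71% lower. The called one was Cd200r3, with 9.1 FPKM in liver MCPs and 0.68 in EMPs, a difference of 2.59 and a ratio of 13.4. Siglecf stood at 6.03 FPKM in liver MCPs and 18.74 in EMPs, a difference of -1.49 that was not called. The median difference was 0.06 over the counted members and -0.08 over all 9448 genes.

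In the MAC library against EMPs, 0 of 5 counted members were called in either direction, where 1.36% of all genes were called higher and 0.69% lower. Lilrb4a, at 5.07 FPKM in the MAC library and 0.66 in EMPs, had a difference of 1.87, Pilra one of 1.75 and Siglecf one of 1.04. The median difference of the counted members was 1.04, and that of all 9124 genes -0.24. With a pseudocount of 0.1 in place of 1 the count of members called was 3, so the absence of calls rests on how low values are weighted. With that pseudocount 3.88% of all genes were called higher and 3.76% lower.

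In liver MCPs against the MAC library, 1 of 6 counted members was called higher and 1 lower, where 2.64% of all genes were called higher and 3.27% lower. Cd200r3 was the higher one, with 9.1 FPKM in liver MCPs and 0.47 in the MAC library, a difference of 2.78. Siglecf was the lower one, with 6.03 FPKM in liver MCPs and 39.47 in the MAC library, a difference of -2.53. Pilra and Lilrb4a, at -1.70 and -1.62, were lower by less than the call.

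In limb MCPs against liver MCPs, both at E11.5, 0 of 6 counted members were called, where 0.807% of all genes were called higher and 2.09% lower. Clec12b had the difference farthest from 0, 1.35, with 1.68 FPKM in the limb and 0.05 in the liver, the second of these being about 1 fragment. The other 5 counted members were lower in the limb by 0.29 to 1.07, none past the call. Cd200r3 had 3.8 FPKM in limb MCPs and 9.1 in liver MCPs.

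In E14.5 against E11.5 limb MCPs, 2 of 6 counted members rose and 0 fell, where 1.81% of all genes were called higher and 1.34% lower. Clec12b stood at 70.23 FPKM at E14.5 and 1.68 at E11.5, a difference of 4.73 and a ratio of 41.8. Lilr4b stood at 5.62 FPKM at E14.5 and 0.54 at E11.5, a difference of 2.10, which came to 1.96 and was no longer called with median-of-ratios scaling. Cd200r3 and Siglecf missed the call in opposite directions, with differences of 1.84 and -1.70.

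In skin at E16.5 against E14.5 limb MCPs, 4 of 6 counted members rose and 0 fell, where 0.879% of all genes were called higher and 19.2% lower. Pilra had 44.42 FPKM in skin and 1.06 in the limb, a difference of 4.46 and a ratio of 41.9. Lilrb4a differed by 4.34, Lilr4b by 3.90 and Siglecf by 2.36, with ratios of 73.9, 17.4 and 10.5. All genes counted in this comparison had a median difference of -1.11, and the counted members one of 3.13. Lilrb4a and Siglecf, at 0.36 and 0.77 FPKM in the limb, were counted only through their skin values. Cd300a, with a difference of 0.41, was not counted. As the members were also picked in part for high skin values, nothing is read from these medians. Clec12b differed by -0.02 with FPKM as deposited, by 0.80 with sums made equal (TPM) and by 1.12 with median-of-ratios scaling, so whether it was level or higher in skin depends on the scaling. Cd200r3 differed by 1.28 as deposited and passed the call with sums made equal (2.09) and with median-of-ratios scaling (2.41).

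The background of the skin comparison also depends on scaling. Of all calls, 95.6% were lower in skin with FPKM as deposited, 79.6% with sums made equal and 67.4% with median-of-ratios scaling, and the median of all genes moved up by 0.47 and 0.71. For the MAC library against EMPs the lower share was 33.7% as deposited and 21.0% with median-of-ratios scaling. For liver MCPs against the MAC library it was 55.3% as deposited and 67.0% with median-of-ratios scaling. Consecutive comparisons share a library, so a high value in one of them enters both.

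**Figure D3:**
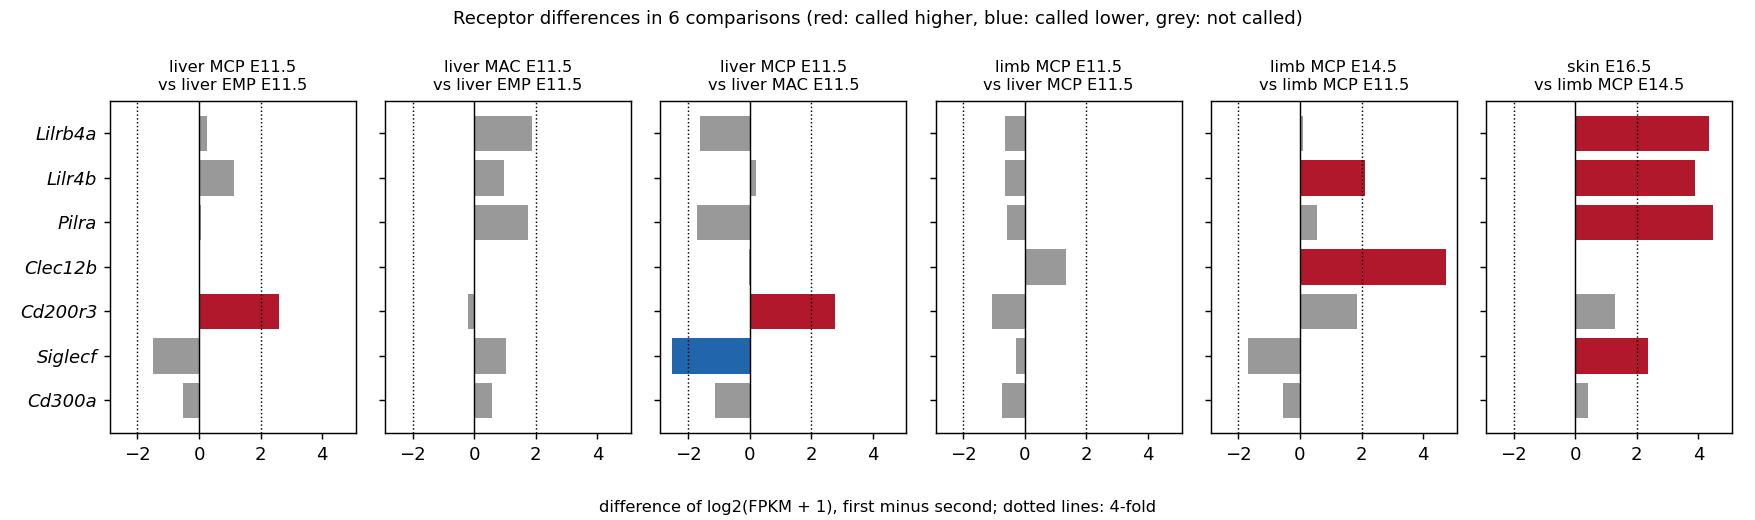
Difference of log2(FPKM + 1) for each receptor gene in the 6 comparisons, first library minus second, with dotted lines at 4-fold and colour showing the call. The skin comparison has 4 members called higher (2.36 to 4.46), and the limb comparison across age has 2 (Clec12b at 4.73 and Lilr4b at 2.10).

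In a wider list of other inhibitory receptors (28 of 29 in the table), the calls in liver MCPs were all in the lower direction. Against EMPs, 0 of 17 counted genes were higher and 4 lower in liver MCPs (all genes 1.4% and 1.71%). Ceacam1, an adhesion receptor with ITIMs, stood at 3.77 FPKM in liver MCPs and 26.86 in EMPs, and Vsir, the VISTA checkpoint receptor, at 1.38 FPKM in liver MCPs and 10.4 in EMPs. Clec12a and Siglece were the other 2. Against the MAC library, 0 of 19 were higher and 7 lower (all genes 2.64% and 3.27%), among them Sirpa, the receptor for CD47, with 10.15 FPKM in liver MCPs and 47.84 in the MAC library. The others were Cd33, Ceacam1, Clec12a, Clec4a2, Siglece and Vsir. No gene of the list was called in limb against liver MCPs at E11.5 (all genes 0.807% higher and 2.09% lower). None of 19 was called in the MAC library against EMPs as deposited (all genes 1.36% higher and 0.69% lower). Siglece (2.10) and Vsir (2.08) were called higher with median-of-ratios scaling (all genes 1.52% higher and 0.406% lower).

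In E14.5 against E11.5 limb MCPs (all genes 1.81% higher and 1.34% lower), 1 of 14 counted genes of the list rose, Cd200r1 with 10.37 FPKM at E14.5 and 1.69 at E11.5, and 1 fell, Clec12a. Neither was called with median-of-ratios scaling. In skin against E14.5 limb MCPs, where 0.879% of all genes were called higher and 19.2% lower, 1 of 12 rose, Cd33 with 13.05 FPKM in skin and 2.07 in the limb, and 1 fell, Pecam1, a platelet and endothelial ITIM receptor, with 0.48 FPKM in skin and 5.02 in the limb. With sums made equal 4 were higher and with median-of-ratios scaling 6, and 0 were lower in both cases. All genes called were 3.05% higher and 11.9% lower with sums made equal, and 4.37% and 9.06% with median-of-ratios scaling. Milr1, the mast cell receptor allergin-1, was at 21.97 FPKM in skin and 10.06 in E14.5 limb MCPs, a difference of 1.05 that was called with median-of-ratios scaling alone (2.16).

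Of the paired activating receptors (26 of 28 in the table), 6 could be counted in skin against E14.5 limb MCPs, and 2 rose, Pilrb1 and Pilrb2, the partners of Pilra (all genes 0.879% higher and 19.2% lower). These 3 genes share windows, and the part of shared reads in the Pilrb values was not tested. In E14.5 against E11.5 limb MCPs, 0 of 6 rose and 1 fell, Treml2, with 2.25 FPKM at E14.5 and 18.77 at E11.5 (all genes 1.81% higher and 1.34% lower). In liver MCPs 1 of 8 was lower against EMPs, Clec5a (all genes 1.71%), and 2 of 15 against the MAC library, Clec5a and Clec7a (all genes 3.27%). Pira2 was the 1 higher of 13 in the MAC library against EMPs (all genes 1.36%). With sums made equal, Clec7a and Pira2 were not called. In addition, 0 of 7 were called in E11.5 limb against liver MCPs (all genes 0.807% higher and 2.09% lower). Fcgr3, the low-affinity IgG receptor, was the highest of the list, at 30.29 to 41.72 FPKM in all 6 libraries.

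The adaptors of activating receptors parted in skin. Tyrobp (DAP12), the partner of Cd200r3, measured 101.57 FPKM in EMPs, 110.98 in liver MCPs, 307.83 in E11.5 limb MCPs, 217.18 in E14.5 limb MCPs, 26.6 in skin and 322.17 in the MAC library. Skin was the lowest, and the difference from E14.5 limb MCPs was -2.98, a fall that was not called with median-of-ratios scaling. Fcer1g, the gamma chain of the IgE receptor, had 449.02 FPKM in skin and 163.7 in E14.5 limb MCPs, a difference of 1.45 that was not called as deposited and was called higher with sums made equal (2.28) and with median-of-ratios scaling (2.61). Cd200r3 was thus highest in the library in which its adaptor was lowest.

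Among effectors that act with ITIM receptors, the only call outside the skin comparison was Dok3, with 1.4 FPKM in liver MCPs and 9.74 in the MAC library (1 of 16 lower, all genes 3.27%). Of 16 genes 15 were counted in skin against E14.5 limb MCPs, with 0 higher and 4 lower where 0.879% of all genes were called higher and 19.2% lower, and their median difference was -1.48 against -1.11 for all genes. Ptpn6 (SHP-1) had 1.28 FPKM in skin and 9.83 in E14.5 limb MCPs, and this call was lost with both other scalings. Inpp5d (SHIP-1) had 0.46 FPKM in skin and 13.88 in E14.5 limb MCPs. Csk, a kinase that restrains Src-family kinases, had 0.15 in skin and 14.94 in the limb, and Dok2, an adaptor that limits Ras signalling, had 0.13 in skin and 7.55 in the limb. These 3 were called under each scaling. Lyn, which phosphorylates ITIMs, was not low in skin, with 23.72 FPKM in skin and 21.65 in E14.5 limb MCPs. The median of this list was close to the shift of all genes, and the low gene number of the skin library stands beside these values; its part in them was not tested.

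**Figure D4:**
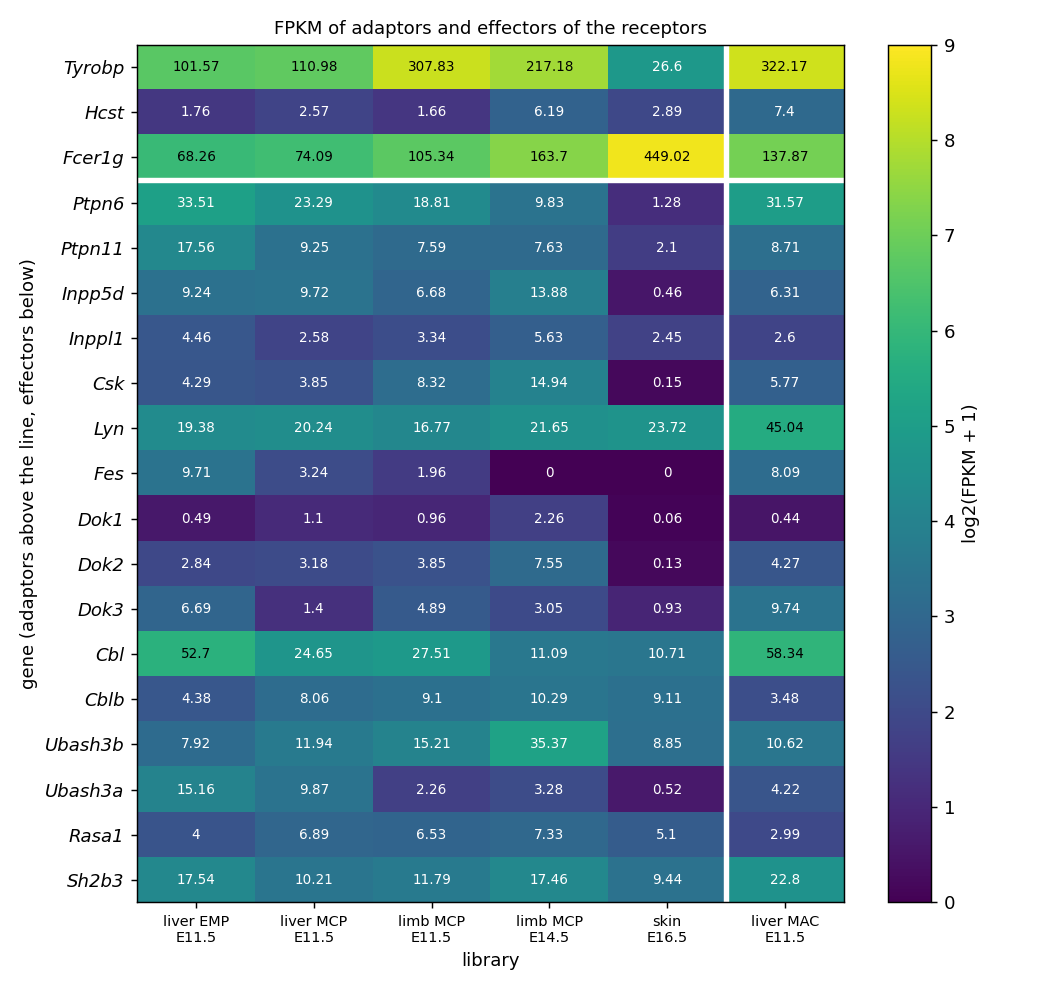
FPKM of receptor adaptors (above the line) and of effectors of inhibitory motifs (below it) in the 6 libraries, with colour as log2(FPKM + 1) and 1 library per column. In the skin column Fcer1g stands at 449.02 and Lyn at 23.72, while Inpp5d, Csk and Dok2 are below 1 FPKM.

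A list drawn up as ligands (11 genes), not all of them ligands of the 7 receptors, was also followed in the same cells. Which of the 7, if any, each one binds was not examined. Pianp, a ligand of PILR-alpha, was at 6.09 FPKM in skin, 2.5 in E14.5 limb MCPs and 1.18 or less elsewhere, and the skin difference of 1.02 was called higher with median-of-ratios scaling alone (2.01). Cd47, the ligand of SIRP-alpha, was listed at 0 in skin, against 7.4 FPKM in E14.5 limb MCPs, and Fn1, fibronectin, was at 0.18 in skin and 7.4 in E14.5 limb MCPs. As deposited these 2 of 6 counted genes of the list were lower and 0 higher, where 19.2% of all genes were called lower and 0.879% higher. Fn1 was also called higher at E14.5 than at E11.5 in limb MCPs (2.38, 1 of 6, all genes 1.81%), higher in the MAC library than in EMPs (2.74, 1 of 5, all genes 1.36%) and lower in liver MCPs than in the MAC library (-3.37, 1 of 5, all genes 3.27%). Calr, calreticulin, was the highest of the list, and was lower in E11.5 limb MCPs (50.64 FPKM) than in liver MCPs (221.87 FPKM) by a call (1 of 5, all genes 2.09%) that was lost with both other scalings.

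The genes most like each receptor were sought among 2494 genes that reached 10 FPKM and varied by at least 2 on the log2 scale. The measure was Pearson r of log2(FPKM + 1) over the 6 libraries, a description over few points that share libraries and depth. Clec12b came closest to Socs2, a cytokine signalling inhibitor (0.997), Hdc, the histamine-forming enzyme (0.991), and Itga9, an integrin chain (0.990). Hdc read 60.5 FPKM in EMPs, 63.7 in liver MCPs, 113.94 in E11.5 limb MCPs, 564.48 in E14.5 limb MCPs, 579.07 in skin and 43.57 in the MAC library, as deposited near level between the older limb and skin, as Clec12b was.

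For Lilrb4a the nearest were Pilra (0.992), I830077J02Rik (0.960) and B2m, the light chain of MHC class I (0.959). Pilra had the same 3-gene company, with Lilrb4a (0.992), I830077J02Rik (0.931) and B2m (0.931). Lilr4b was nearest to Vwa5a (0.986), Dnase2b (0.985) and Rap1a (0.984). Cd200r3 was nearest to Gimap5 (0.969), Nmb, which encodes neuromedin B (0.965), and the mast cell protease gene Cpa3 (0.961). Siglecf was nearest to Ceacam1 (0.974), Fam107b (0.971) and F13a1, coagulation factor XIII (0.950), and Cd300a to Nhsl2 (0.990), Tm6sf1 (0.988) and Camp, a neutrophil granule peptide (0.984). These neighbours rest on the skin library: without it 2 of the 21 remained among the nearest 3, while with sums made equal 17 of 21 did.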

How the data were processed

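Bulk RNA of sorted cells was measured in 6 libraries, 1 per group. What the authors deposited is 1 FPKM table. The submitters' processing notes name Bowtie2, RSEM and the mm10 (GRCm38) build, while no version is given in the sources used here. Dropping 4 rows with repeated names from 17913 left 17909 genes, and all 6 columns matched a sample label. RSEM divides reads that fit several genes by estimated likelihood, which affects near-identical copies such as Lilr4b and Lilrb4a.

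Groups were taken from the labels. The 6 comparisons used differences of log2(FPKM + 1), with a call at 2 (4-fold) where 1 or both libraries reached 1 FPKM. With 1 library per group no p-value, error or interval was computed. The 7 genes and the lists were chosen with earlier results of these data known. Family relatives, promoter motifs and the depth estimate were chosen after the values had been seen. Depth was sought as the library total that brought the fragments implied by low FPKM values closest to whole numbers, and 74.8% to 80.5% of usable values lay within 0.2 of one, against 40% by chance. The difference and call steps were checked on simulated data.

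Named genes were all 7 members, the 3 genes most like each by Pearson r, the highest member of each list and its called members, and further relatives or list members named for their function, picked after their values were seen. Alternatives were pseudocounts of 0.1 and 5 FPKM, no filter, an FPKM of at least 10, a 2-fold call, sums made equal (TPM), size factors by median of ratios from 4580 genes and, for likeness, leaving out skin. Positions and coding sequences came from GENCODE M21 and promoters from RefSeq (GRCm38.p6). Python 3.11.15, pandas 2.3.3, numpy 2.4.6, Biopython 1.88 and matplotlib 3.10.9 were used.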

Additional observations from a re-analysis of the deposited data

How the results depend on the processing

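In skin against E14.5 limb MCPs, 3 to 5 members were called under every alternative run. The share of all genes called higher there ranged from 0.289% with a pseudocount of 5 to 5.21% at 2-fold. The share called lower ranged from 4.3% with a pseudocount of 5 to 55.3% at 2-fold. The other counts of members called depended on how low values were weighted and on the fold required. The share of all genes called moved with these settings too, so nothing is read from the counts. Liver MCPs against EMPs had 1 as reported, 2 with a pseudocount of 0.1, 3 at 2-fold, and 0 with a pseudocount of 5 or with 10 FPKM required. Of all genes, 5.04% were called higher and 4.76% lower with a pseudocount of 0.1, and 9.23% and 11.6% at 2-fold. These shares were 0.243% and 0.445% with a pseudocount of 5, and 1.78% and 3.09% with 10 FPKM required. The MAC library against EMPs had 0 as reported and 3 with a pseudocount of 0.1 or at 2-fold. All genes came to 3.88% higher and 3.76% lower with a pseudocount of 0.1, and to 5.86% and 9.84% at 2-fold. For liver MCPs against the MAC library 2 were called as reported, 4 with a pseudocount of 0.1, 5 at 2-fold, and 1 with a pseudocount of 5 or with 10 FPKM required. All genes came to 8.74% higher and 6.87% lower with a pseudocount of 0.1, and to 16.4% and 11.7% at 2-fold. They came to 0.399% and 1.16% with a pseudocount of 5, and to 3.72% and 5.99% with 10 FPKM required. For E11.5 limb against liver MCPs 0 were called as reported, 1 with a pseudocount of 0.1 and 2 at 2-fold. All genes came to 3.85% higher and 6.32% lower with a pseudocount of 0.1, and to 7.75% and 12.8% at 2-fold. For E14.5 against E11.5 limb MCPs 2 were called as reported, 4 with a pseudocount of 0.1 or at 2-fold, and 1 with a pseudocount of 5, with 10 FPKM required or with median-of-ratios scaling. All genes came to 6.36% higher and 5.06% lower with a pseudocount of 0.1, and to 9.86% and 8.13% at 2-fold. They came to 0.453% and 0.232% with a pseudocount of 5. With 10 FPKM required they came to 2.39% and 1.75%, and with median-of-ratios scaling to 1.41% and 1.25%. No called member changed direction. Of 42 differences of single members, 40 kept their side of the call with median-of-ratios scaling, 41 with equal sums, 38 with a pseudocount of 5 and 33 with one of 0.1. Most of the 42 were not called to begin with, and members under 1 FPKM in both libraries were included. These counts therefore say little about the called differences. The 4 that moved with a pseudocount of 5 had all been called as reported. They were Cd200r3 in liver MCPs against EMPs (1.31) and against the MAC library (1.37), Lilr4b in E14.5 against E11.5 limb MCPs (0.94) and Siglecf in skin (1.18). No paired analysis was possible because each group held 1 library and no result comes from a test. Leaving out a replicate could not be done for the same reason. At these depths 3 fragments on a 1.5 kb transcript give 0.167 to 0.234 FPKM, so differences between lower values were not detectable.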
